A study of Mus musculus with 6 samples.

Results

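The comparison was made between CD11b+Gr-1high cells sorted from the spleens of mice with 4T1 mammary tumors (4T1-TB, 2 arrays) and the same sorted fraction from spleens of wild-type mice without a tumor (WT, 2 arrays), which are 4 of the 6 arrays in the series. All hosts were female BALB/c mice. The 4T1-TB hosts had been injected in an abdominal mammary gland with 4T1, a carcinoma line that came from a BALB/c mammary tumor, and carried large tumors when the spleens were taken, whereas the WT hosts received no tumor. The cells were obtained by flow cytometric sorting with antibodies to CD11b and Gr-1, so each array measured a sorted fraction rather than one cell type by construction. The remaining 2 arrays came from mice given recombinant G-CSF and were used here for the estimate of the spread between arrays and, in a few places, for levels set beside those of the tumor-bearing mice. The study described independent experiments, but the labels did not say how many animals went into an array or which arrays came from one experiment, and the age at sorting was not given in the sources used here. The p-values therefore measured the spread between these arrays only. The rule took in all 45281 probes of the array, and a probe was called detected when its detection p-value was below 0.05 on at least 2 of the 6 arrays, which held for 11527 probes.

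Cells with CD11b, the alpha chain of the integrin Mac-1, and a high level of Gr-1, an epitope shared by Ly6G and Ly6C, are mostly neutrophils and their precursors in the normal spleen. In tumor-bearing mice cells of this phenotype accumulate in blood and spleen and are termed granulocytic myeloid-derived suppressor cells (MDSC) when they restrain T cells. Granulocytes fill their granules in a fixed order as they mature, with primary granule proteases made by promyelocytes, secondary granule proteins such as lactoferrin by myelocytes, and tertiary granule gelatinase and cell surface receptors by the latest stages, and they stop dividing before the secondary stage is complete. Mature neutrophils have few mitochondria and rely on glycolysis. G-CSF, acting through the receptor encoded by Csf3r, drives their production and release.

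The values were log2 intensities that had been quantile normalized over the 6 arrays. Before normalization the median intensity was 117.2 to 126.9 on every array, whereas the upper end differed, with the 95th percentile at 247.3 and 207.2 for WT and at 500.1 and 336.1 for 4T1-TB, so the arrays differed in the upper part of their distribution before they were made equal. Detection calls numbered 9175 and 7421 for WT and 9533 and 8568 for 4T1-TB. Over the detected probes, the WT arrays differed from each other with a typical SD of 0.14 on the log2 scale and the 4T1-TB arrays with 0.23, and the G-CSF arrays, which enter the same estimate of the spread, differed with 0.45. A value near 7.0 lay at the array background. A group difference of a detected probe carried a 95% confidence interval with a median half-width of 0.29.

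S100a8 and S100a9, abundant neutrophil transcripts, were bright in both groups, whereas other neutrophil markers changed. Of 17 neutrophil marker genes on the array 16 were detected, and the sum of their linear intensities, taking the brightest probe of each gene, was 75943 and 75961 in WT and 85808 and 92646 in 4T1-TB. Single members did change, with 3 called higher (17.65%) and 4 called lower (23.53%) and differences from -4.32 to 1.17. Over all genes 5.41% were higher and 3.17% lower, and over those with a detected probe 14% and 8.22%. The largest fall was in Ngp, a granule protein gene, from 12.21 and 11.91 in WT to 7.67 and 7.81 in 4T1-TB. S100a8, which encodes a calcium-binding protein abundant in neutrophil cytosol, had log2 intensities of 14.27 and 14.20 in WT and 14.002 and 14.07 in 4T1-TB, a difference of -0.20 (adjusted p = 0.24, limma). Its partner S100a9 was at 12.58 and 12.95 in WT and 12.74 and 12.71 in 4T1-TB (difference -0.03, adjusted p = 0.96, limma). Neither difference passed the test. The S100a8 values lay close to the top of the scale at 14.37, so its difference was measured near the ceiling. The sort marker Ly6g has no probe named for it in the annotation used. The sum for 21 macrophage genes was 10743 and 11192 in WT and 10259 and 10404 in 4T1-TB, and that for 17 T cell genes was 2756 and 2984 in WT and 3977 and 4693 in 4T1-TB, with 7 members of each of these lists detected on none of the 4 arrays. The 11 B cell genes summed to 1772 and 1758 in WT and 2566 and 2238 in 4T1-TB, where 4 members were not detected on any of the 4 arrays. The 19 mammary tumor epithelium genes summed to 11020 and 11025 in WT and 15468 and 21983 in 4T1-TB. None of them was called, only 4 counted as detected, and 14 were detected on none of the 4 arrays. Differences in this list ran from -0.18 to 0.88. The WT hosts carried no tumor, so the WT sums did not come from tumor cells. Which members made up the sums was not tested. The part that other cells in the sorted fraction had in the results was not tested.

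Across all probes, 1326 were higher and 1160 were lower in 4T1-TB than in WT cells at an adjusted p below 0.05 (limma, Benjamini-Hochberg adjustment over all 45281 probes), which is 2.93% and 2.56% of the array. These 2486 probes covered 1921 genes, and in all of them the 2 WT and 2 4T1-TB values did not overlap, as was also the case for 20304 probes in all. By the criterion of a 2-fold change with an unadjusted p below 0.01, 797 probes were higher and 792 lower, together 3.51% of the array. Large falls outnumbered large rises. Of the called probes 87 rose and 242 fell by at least 4-fold, 20 rose and 87 fell by at least 8-fold, and 1 rose and 28 fell by at least 16-fold. Probes that fell were bright in WT cells, with a median log2 level of 8.39 that went to 7.02 in 4T1-TB, and probes that rose went from a median of 7.498 to 8.71. Of the lower probes, 507 were not detected on either 4T1-TB array, and 311 of the higher probes were not detected on either WT array, so that for those only a lower bound of the fold change is given below.

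These counts depended on the scaling of the arrays. With each array centred on its median instead of quantile normalized, 26 probes were higher and 9 lower at an adjusted p below 0.05, and 1259 were higher and 225 lower by the 2-fold criterion, so that the higher share moved from 50.2% to 84.8%. Over the 7344 genes with a detected probe the median difference was 0.11 as deposited and 0.24 after median centring. Leaving out WT array 1 or 2 gave 250 or 244 higher and 479 or 512 lower probes, leaving out 4T1-TB array 1 or 2 gave 331 or 352 higher and 556 or 608 lower, and a fit without either G-CSF array, or without both, gave 3045 higher and 2081 lower. Of the 232 called probes that the rules for naming genes picked, 95 probes of 85 genes (49 higher and 46 lower) kept an adjusted p below 0.05 in each of the 6 fits with 1 array left out. Such a probe is described below as held, in most cases with the highest adjusted p of those 6 fits. A fit without a WT or 4T1-TB array had 1 array in that group, so its spread came from the other groups. No named probe lost its call without a G-CSF array. Of the 232 probes 11 were also called after median centring.

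**Figure D1:**
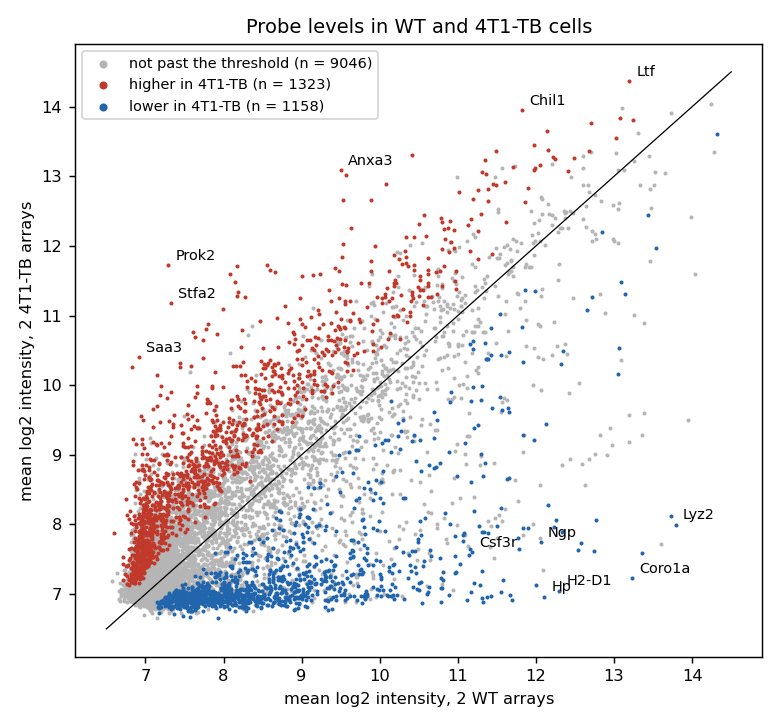
Mean log2 intensity of each detected probe over the 2 WT arrays (x axis) against the mean over the 2 4T1-TB arrays (y axis), with 1323 called higher probes in red, 1158 called lower probes in blue, the others in grey, and equal levels as a line. Called lower probes lie along the background near 7 on the y axis up to WT levels above 13, where Lyz2 and Coro1a are marked, whereas called higher probes form a band above the line with Prok2, Stfa2 and Saa3 at its upper left.

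Genes of the secondary and tertiary granules moved both ways. Of 24 on the array, 22 were detected, 6 rose and 5 fell, that is 25% and 20.8% of the list, against 5.41% and 3.17% of all 19057 genes with 1 probe each and 14% and 8.22% of the 7344 with a detected probe. Chil1, which encodes a chitinase-like protein of the secondary granule, was at 11.76 and 11.87 in WT and 13.89 and 14.002 in 4T1-TB. Both tumor arrays stood about equally far above both WT arrays, with a difference of 2.13 ± 0.07 (SE; adjusted p = 0.00042, limma), and the call held (0.0114) and was kept after median centring. Chil3, another chitinase-like gene of the family, had 2 detected probes that rose by 2.07 and 2.33 (adjusted p = 0.0259 and 0.0358, limma), and neither call was kept when any of the 4 compared arrays was left out. Ltf, lactoferrin itself, chosen after its values were seen, read 13.14 and 13.25 in WT and 14.37 on both 4T1-TB arrays, which is the top value of the scale, so its difference of 1.17 (adjusted p = 0.041, limma) was measured at the ceiling. Lyz2, lysozyme M, behaved in the opposite way on 1 of its probes, at 13.79 on both WT arrays against 8.02 and 7.98 in the tumor-bearing mice (difference -5.79 ± 0.26, adjusted p = 0.000696, limma, held at 0.0165 and also called after median centring). A further Lyz2 probe read 8.92 and 8.85 in WT and 9.56 and 9.98 in 4T1-TB (difference 0.88, adjusted p = 0.192, limma), so the probes of this gene did not point one way. Adam8, a membrane protease, and Olfm4, olfactomedin 4 of a neutrophil subset, fell by 1.35 and 1.05 (adjusted p = 0.00135 and 0.00209, limma), and both calls held. The median of this list was -0.16 as deposited but 0.66 after median centring, where 1 gene rose and 1 fell. Without WT array 1 or 2 or 4T1-TB array 1 the counts were 2 higher and 3 lower, and without 4T1-TB array 2 they were 1 and 3.

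Of 12 genes on the primary granule list only Serpinb1a passed the test (8.33%, against 5.41% of all genes and 14% of those with a detected probe). Mpo and Ctsg, which encode primary granule proteins, were not called and stood more than 1 log2 unit higher on 4T1-TB array 1 than on array 2. On 1 probe Mpo read 6.94 and 6.76 in WT and 8.65 and 7.06 in 4T1-TB (adjusted p = 0.516, limma). Ctsg read 6.87 and 6.86 against 8.13 and 7.02 (adjusted p = 0.508, limma). Serpinb1a encodes an inhibitor of neutrophil serine proteases and not a protease of the granule. Its values were 7.76 and 8.24 in WT and 11.19 and 10.99 in 4T1-TB, a difference of 3.09 ± 0.36 (adjusted p = 0.0098, limma), and the groups lay far apart although the call was lost when any of the 4 compared arrays was left out (adjusted p up to 0.0936).

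Stefins are intracellular inhibitors of cathepsins, and Stfa1, Stfa2, Stfa2l1 and Cstb rose. Stfa3 was at 6.88 and 6.84 in WT and 6.99 and 7.003 in 4T1-TB and was not called (adjusted p = 0.661, limma). Stfa1, Stfa2, Stfa2l1 and Stfa3 belong to a cluster of near-identical mouse genes on chromosome 16, so that probes for one may also bind transcripts of another. Of 16 stefin and S100 genes on the array 4 rose (25% of the list, against 5.41% of all genes) and 1 fell, S100a6, by 0.86. Their promoters are shown because 3 of these neighbours moved in the same direction. In the RefSeq-based windows (GRCm38.p6) from 120 bases before to 20 bases after the start, capitals mark the runs of at least 12 bases shared by all 4, which are an AT-rich stretch before the start and a stretch across it.
Stfa1 (chr16:36277028-36277167, plus strand): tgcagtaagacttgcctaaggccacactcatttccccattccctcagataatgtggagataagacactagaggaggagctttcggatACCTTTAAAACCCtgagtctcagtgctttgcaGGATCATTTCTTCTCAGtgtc
Stfa2 (chr16:36408344-36408483, minus strand): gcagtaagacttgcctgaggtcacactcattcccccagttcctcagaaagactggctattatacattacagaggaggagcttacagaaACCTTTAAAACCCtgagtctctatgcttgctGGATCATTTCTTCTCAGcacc
Stfa2l1 (chr16:36156691-36156830, plus strand): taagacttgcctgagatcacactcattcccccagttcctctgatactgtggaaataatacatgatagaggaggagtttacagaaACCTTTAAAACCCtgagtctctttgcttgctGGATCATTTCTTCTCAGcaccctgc
Stfa3 (chr16:36455373-36455512, minus strand): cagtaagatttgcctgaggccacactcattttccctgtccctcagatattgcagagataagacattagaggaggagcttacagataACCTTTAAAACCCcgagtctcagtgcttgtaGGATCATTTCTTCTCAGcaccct
Pairwise identity of these windows was 78.1% to 85.4%. The TATA box letters TATAAA, searched on both strands, are present in none of the stefin windows shown and in 7.27% of all 27025 promoter windows of this length. The shared runs are a description of the letters, and no factor was measured.

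Stfa2 rose on both its probes. The brighter probe read 10.23 and 10.60 in WT and 13.05 and 13.57 in 4T1-TB, a difference of 2.90 ± 0.20 (adjusted p = 0.00209, limma), and this call held (0.0276) and was kept after median centring. The dimmer probe read 7.24 and 7.41 in WT and 10.99 and 11.36 in 4T1-TB (3.85 ± 0.33, adjusted p = 0.00364, limma) and lost its call only without WT array 1 (0.0515). Every tumor array was thus above every WT array on both probes. Stfa1 rose from 11.25 and 11.37 to 12.91 and 13.21 (1.75 ± 0.15, adjusted p = 0.00359, limma, held at 0.0494), with a second probe at 1.77. Stfa2l1 rose from 7.28 and 7.37 to 9.18 and 9.35 (1.94 ± 0.25, adjusted p = 0.0129, limma), a call lost without any of the 4 compared arrays. Cstb, cystatin B, which lies outside the cluster and is expressed in most cells, went from 11.02 and 11.23 to 12.41 and 12.18 (1.17 ± 0.12, adjusted p = 0.00586, limma) and lost its call without WT array 1 (0.0569).

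Of 21 acute-phase genes on the array 4 rose (19.0%, against 5.41% of all genes and 14% of those with a detected probe). None was counted as a fall on the brightest probe, which stands for a gene in these lists, but Hp, a member of the list, fell on its other 2 probes. Saa3, a serum amyloid A made by myeloid cells in inflammation, was near background in WT at 6.91 and 6.92 and reached 10.37 and 10.44 in 4T1-TB. It was not detected in WT, so the rise was at least 10.1-fold (adjusted p = 0.000814, limma, held at 0.0183). Ambp, the precursor of alpha-1-microglobulin and bikunin, went from 7.12 and 7.18 to 10.05 and 10.26 (3.01 ± 0.14, adjusted p = 0.000714, limma, held at 0.0169). Both of these also passed after median centring. Orm1, orosomucoid, rose by 1.77 ± 0.17 from 7.71 and 8.04 to 9.63 and 9.66 (adjusted p = 0.00501, limma), and Cfp, properdin of the alternative complement pathway, rose by 1.39 ± 0.14 from 11.52 and 11.46 to 12.97 and 12.79 (adjusted p = 0.00615, limma). Orm1 lost its call without either 4T1-TB array (up to 0.0524), and Cfp without 4T1-TB array 1 or either WT array (up to 0.072). Hp encodes haptoglobin, a plasma protein that neutrophils also store. The probe named among the largest falls read 12.15 and 12.06 in WT and 6.94 and 6.98 in 4T1-TB, where it was not detected, a fall of at least 33.3-fold (adjusted p = 0.00066, limma, held at 0.016). A second Hp probe fell by 4.14 (adjusted p = 0.00042, limma), and the brightest probe read 13.26 and 13.45 in WT and 9.23 and 9.34 in 4T1-TB with a difference of -4.07 that was not called (adjusted p = 0.381, limma), the 2 G-CSF arrays lying at 7.70 and 13.42 and widening the spread.

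Among effectors tied to MDSC, Wfdc17, which encodes a small whey acidic protein of activated phagocytes, rose and held. Its values were 9.20 and 9.22 in WT and 11.14 and 11.02 in 4T1-TB (1.87 ± 0.09, adjusted p = 0.000826, limma, held at 0.0183). Prok2, a secreted angiogenic peptide also called Bv8, had the largest rise among the called probes, from 7.24 and 7.34 to 12.51 and 10.93. The 2 tumor arrays differed from each other by more than 1 log2 unit, the difference was 4.43 ± 0.84 (adjusted p = 0.0448, limma), and the call was lost without any of the 4 compared arrays (adjusted p up to 0.258). The other detected Prok2 probe gave 0.90 and was not called (adjusted p = 0.839, limma), so the large rise was seen on 1 probe only. Tgfb1, which encodes a cytokine that suppresses T cells, fell from 9.99 and 9.57 to 6.87 on both tumor arrays, at least 6.64-fold (adjusted p = 0.0024, limma, held at 0.0312). Slc7a11, the cystine transporter, fell by 1.07 (adjusted p = 0.0194, limma), a call lost without WT array 2 or either 4T1-TB array (up to 0.147). Arginase 1 and inducible nitric oxide synthase, the enzymes through which such cells deplete arginine, were close to background on all 4 arrays, with Arg1 at 6.80 to 7.12 and Nos2 at 6.89 to 7.10 over their 2 probes each. Over the 25 genes of the list on the array the counts were 2 rises and 2 falls, 8% in each direction, against 5.41% and 3.17% of all genes and 14% and 8.22% of those with a detected probe, and no call was made after median centring.

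Receptors that read cytokines and chemoattractants changed in both directions. Csf3r, the G-CSF receptor, fell on all 4 detected probes. One probe read 11.34 and 11.02 in WT and 7.66 and 7.54 in 4T1-TB (-3.58 ± 0.38, adjusted p = 0.00703, limma). Another of similar brightness read 11.06 and 11.26 against 7.67 and 7.61 (-3.52 ± 0.45, adjusted p = 0.0133, limma). The remaining 2 fell at least 7.81-fold and 5.26-fold (adjusted p = 0.0163 and 0.0299, limma). The WT values lay above the tumor values on every one of these probes, but each call was lost without any of the 4 compared arrays (adjusted p up to 0.196), and 1 further probe, which was not detected, gave -0.03 (adjusted p = 0.938, limma). Tnfrsf1a, a receptor for TNF, fell on its 3 detected probes by at least 3.87-fold, 5.62-fold and 3.91-fold (adjusted p = 0.0012, 0.00143 and 0.00108, limma), and all 3 calls held. Cxcr1, a receptor for neutrophil-attracting chemokines, rose from 8.65 and 8.60 to 10.48 and 10.04 (1.64 ± 0.26, adjusted p = 0.0241, limma), and Gpr84, a receptor for medium-chain fatty acids, rose by 1.57 ± 0.16 (adjusted p = 0.00675, limma), with another probe at -0.48 that was not called (adjusted p = 0.876, limma). Cxcr4, which retains neutrophils in the bone marrow, went from 9.09 and 9.10 to 7.84 and 8.36 (-0.99 ± 0.17, adjusted p = 0.0316, limma), a difference that was 0.0052 after median centring. None of the calls for these 3 chemoattractant receptors was kept without WT array 1 or 2 (adjusted p up to 0.211).

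Surface receptors and adhesion molecules gave more falls than rises. Of 23 adhesion genes 6 fell (26.1%, against 3.17% of all genes) and 1, Cd47, rose. Vcam1 fell from 8.38 and 8.27 to 7.22 and 7.01 (-1.21 ± 0.09, adjusted p = 0.00261, limma, held at 0.0375). Itgam, the CD11b of the sort, went from 7.78 and 7.95 to 7.00 and 6.79, a fall of at least 1.77-fold (adjusted p = 0.0077, limma), on values close to background, and lost its call without 4T1-TB array 2 or either WT array (up to 0.0743). Cd44, the hyaluronan receptor, fell from 11.37 and 11.39 to 10.53 and 10.22 (-1.002 ± 0.11, adjusted p = 0.00724, limma) and lost its call without either WT array (up to 0.0771), and after median centring its difference was 0.24. The list counted 1, 1, 4 and 3 falls without WT array 1, WT array 2, 4T1-TB array 1 and 4T1-TB array 2, and none after median centring. Among 27 Fc, complement and lectin receptors 3 rose and 5 fell (11.1% and 18.5%, against 14% and 8.22% of the genes with a detected probe), and none did after median centring. Clec7a, dectin-1 for fungal glucans, fell from 10.46 and 10.34 to 7.28 and 7.38 (-3.07 ± 0.17, adjusted p = 0.00108, limma, held at 0.021), with a second probe at -0.31 that was not called (adjusted p = 0.596, limma), and Cd300lf, an inhibitory receptor for lipids, fell at least 4.86-fold from 9.34 and 9.32 (adjusted p = 0.000661, limma, held at 0.016). Treml4, a receptor of the TREM family found on some splenic myeloid cells, fell by 2.25 on its brighter probe from 9.38 and 9.36 to 7.08 and 7.16 (adjusted p = 0.000519, limma, held at 0.0139) and at least 3.63-fold on the other. Treml4 also stood on the monocyte list, whose 18 genes summed to 8379 and 8437 in WT and 8296 and 6457 in 4T1-TB, and their part in the result was not tested. C1qc, a complement subunit that macrophages make, fell at least 2.28-fold from 8.28 and 8.19 (adjusted p = 0.000667, limma, held at 0.0142). It was 1 of 4 of 21 macrophage genes that fell (19.0%, against 3.17% of all genes and 8.22% of those with a detected probe), none of which did after median centring.

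Antigen presentation genes were lower or uncalled with 1 exception. H2-D1, the class I heavy chain of the H2-D locus, fell on 3 probes, with differences of -5.25, -4.68 and -3.56 (adjusted p = 0.019, 0.0278 and 0.044, limma), with the brightest at 12.30 on both WT arrays and 7.05 and 7.04 on the tumor arrays. Class I heavy chains are closely related in sequence, so a probe may not belong to 1 of them only, and no H2-D1 call was kept without any of the 4 compared arrays. Psmb8, a subunit of the immunoproteasome, fell at least 9-fold from 10.40 and 10.03 to 6.98 and 7.01 (adjusted p = 0.000582, limma, held at 0.00957). Of 23 class I genes 3 fell (13.04%, against 3.17% of all genes and 8.22% of those with a detected probe) and none rose, with no call after median centring. Of 17 class II genes 2 fell (11.8%, against 3.17% of all genes and 8.22% of those with a detected probe). In this list 1 rose (5.88%, against 5.41% and 14%), and there was no call after median centring. Cd74, the invariant chain, and H2-Eb1 fell by 2.05 and 1.22 (adjusted p = 0.0339 and 0.0192, limma), neither call being kept without any of the 4 compared arrays. Ctse, an aspartic protease, rose from 11.16 and 11.36 to 12.82 and 12.80 (1.55 ± 0.11, adjusted p = 0.00194, limma), and the call held. Its other detected probes gave 0.21 and 0.26 and were not called (adjusted p = 0.759 and 0.233, limma).

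Interferon-stimulated genes gave 5 rises and 6 falls among 41 (12.2% and 14.6%, against 5.41% and 3.17% of all genes and 14% and 8.22% of those with a detected probe), and 1 rise and no fall after median centring. Members of the interferon-induced transmembrane family were among the rises. Ifitm6 rose from 8.42 and 8.14 to 11.06 and 11.49 (2.99 ± 0.17, adjusted p = 0.00121, limma, held at 0.0182 and called after median centring), and Ifitm3 rose from 11.94 and 12.01 to 13.39 and 13.52 (1.48 ± 0.09, adjusted p = 0.00156, limma, held at 0.0262). Ifitm1 had 5 probes that disagreed. The brightest rose from 12.70 on both WT arrays to 13.76 on both tumor arrays (1.06, adjusted p = 0.00226, limma) and a dim probe rose by 2.27 (adjusted p = 0.00306, limma), whereas 2 others fell at least 16.9-fold and 5.79-fold (adjusted p = 0.00246 and 0.00655, limma). The remaining probe gave -0.55 and was not called (adjusted p = 0.774, limma), and the family members share sequence. Ifit3, an antiviral tetratricopeptide protein, fell from 9.44 and 9.45 to 7.77 and 8.03 (-1.55 ± 0.11, adjusted p = 0.00211, limma, held at 0.034). Cytokine and chemokine genes gave 3 rises and 7 falls among 39 (7.69% and 17.9%, against the same background) and no call after median centring. Ccl3, a chemoattractant for myeloid cells, fell at least 3.67-fold from 8.90 and 8.94 to 6.88 and 6.85 (adjusted p = 0.000794, limma, held at 0.017). Ltb, lymphotoxin beta, which the rule for the largest changes named, fell at least 19.2-fold from 11.40 and 11.22 to 6.92 and 6.96 (adjusted p = 0.00042, limma, held at 0.0116). Without WT array 1, WT array 2, 4T1-TB array 1 and 4T1-TB array 2 the falls among cytokine genes were 2, 3, 2 and 3 and those among interferon-stimulated genes 2, 2, 3 and 3.

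**Figure D2:**
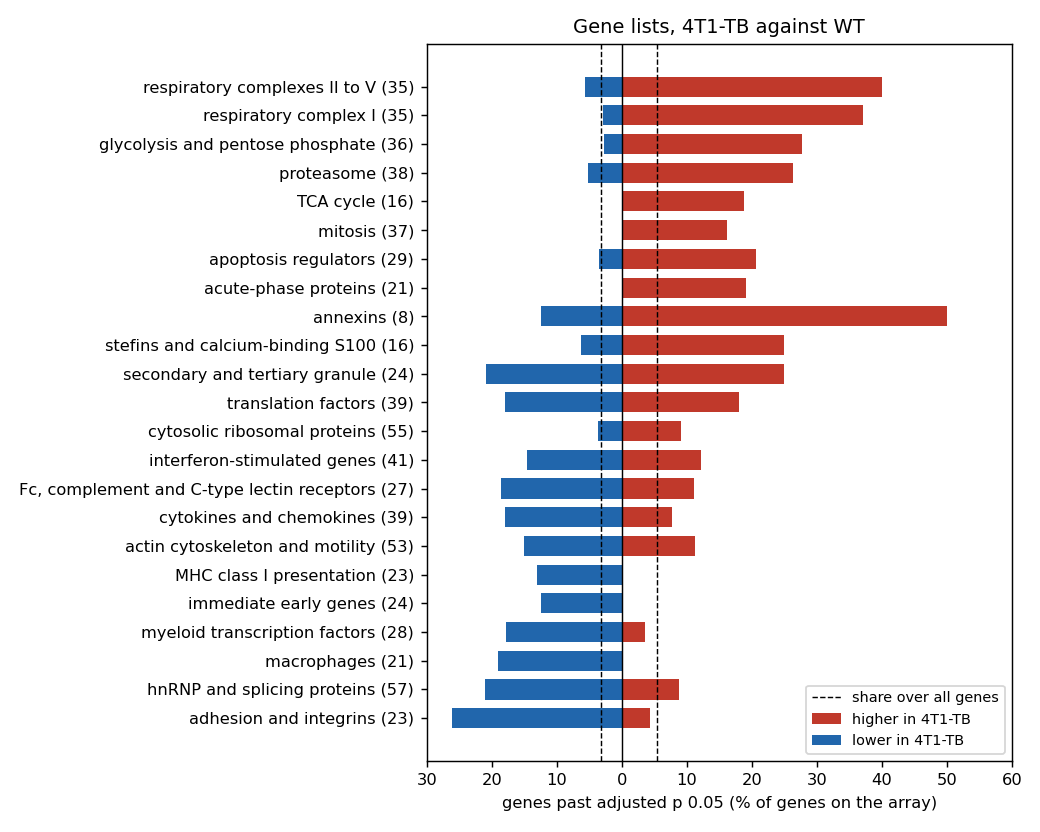
Share of the genes of each of a selection of lists that were higher (red, to the right) and lower (blue, to the left) in 4T1-TB at an adjusted p below 0.05, in percent of its genes on the array, whose number stands in parentheses; dashed lines mark the shares over all genes, 5.41% and 3.17%. The annexins and the respiratory complexes extend farthest to the right and the adhesion genes farthest to the left.

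Many genes of oxidative phosphorylation, in which a mitochondrial chain passes electrons to oxygen and drives ATP synthase, rose. Of 35 complex I genes on the array, 29 were detected, 13 rose (37.1%, against 5.41% of all genes and 14% of those with a detected probe) and 1 fell. The median of the list was 0.56 against 0.011 over all genes. For its detected members it was 0.83 against 0.11 over the genes with a detected probe. Ndufa2, an accessory subunit, went from 9.04 and 9.42 in WT to 10.97 and 11.07 in 4T1-TB (1.79 ± 0.13, adjusted p = 0.00219, limma, held at 0.0265 and called after median centring). Ndufv3, a small subunit next to the NADH-binding core, rose on both its probes, from 8.42 and 8.51 to 10.80 and 11.06 (2.46 ± 0.20, adjusted p = 0.00318, limma, held at 0.0466) and by 2.88 (adjusted p = 0.0202, limma). Ndufa10, Ndufb8 and Ndufs7 rose by 0.80, 1.15 and 0.90, each with an SE of at most 0.08, and all 3 calls held. The single fall was Ndufab1, the mitochondrial acyl carrier protein, whose probes disagreed, with 11.59 and 11.42 in WT against 6.87 and 9.09 in 4T1-TB on one (-3.53, adjusted p = 0.0458, limma) and a rise of 0.93 on another (adjusted p = 0.0124, limma). The list counted 6, 6, 9 and 7 rises without WT array 1, WT array 2, 4T1-TB array 1 and 4T1-TB array 2, 21 without the G-CSF arrays, 12 with background correction by neqc and 2 after median centring, where its median was 1.54.

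Complexes II to V behaved alike in their counts, with 14 rises (40%) and 2 falls among 35 genes. Of all genes 5.41% rose, and of those with a detected probe 14%. Atp5j2, a subunit in the membrane part of ATP synthase, rose from 10.80 and 10.84 to 12.19 and 12.29 (1.42 ± 0.07, adjusted p = 0.000734, limma, held at 0.0165). Cox5a of cytochrome oxidase rose from 9.17 and 8.83 to 10.97 and 10.80 (1.88 ± 0.15, adjusted p = 0.00277, limma, held at 0.0327). Uqcr10 of complex III rose on both probes, by 1.51 and 1.78 (adjusted p = 0.00766 and 0.00386, limma), and the call of the second held. Leaving out the same 4 arrays in the same order gave 6, 6, 7 and 7 rises, and median centring gave 2. In the citric acid cycle, which feeds the chain, 3 of 16 genes rose (18.75%) and none fell. That share lay near the 14% of the genes with a detected probe, against 5.41% of all genes, and fewer rose when one of these arrays was left out. Among the rises was Suclg1 of succinyl-CoA synthetase, from 7.61 and 7.47 to 9.18 and 9.05 (1.58 ± 0.13, adjusted p = 0.00338, limma), whose call held. Another Suclg1 probe gave -0.13 and was not called (adjusted p = 0.516, limma).

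Glycolytic genes rose as well, 10 of 36 (27.8%, against 5.41% of all genes and 14% of those with a detected probe), with 1 fall. Tpi1, triosephosphate isomerase, went from 8.61 and 8.71 to 11.71 and 11.54 (2.96 ± 0.13, adjusted p = 0.000661, limma, held at 0.016). Slc2a1, the glucose transporter GLUT1, rose from 9.59 and 9.65 to 10.92 and 10.96 (1.32 ± 0.13, adjusted p = 0.00609, limma), a call lost without any of the 4 compared arrays (up to 0.0703), and Slc2a6, a further hexose transporter of leukocytes, rose by 0.78 ± 0.07 (adjusted p = 0.0041, limma; 0.0509 without WT array 2). Pfkp, the platelet isoform of phosphofructokinase, was the fall, from 9.43 and 9.19 to 6.87 and 7.51 (-2.12 ± 0.21, adjusted p = 0.00609, limma), and lost its call without either WT array. Without WT array 1, WT array 2, 4T1-TB array 1 and 4T1-TB array 2 there were 4, 4, 3 and 4 rises, with neqc 6, and after median centring 2. Dbi, the acyl-CoA binding protein, rose from 8.81 and 9.18 to 11.73 and 11.41 (2.57 ± 0.15, adjusted p = 0.00137, limma, held at 0.0165), whereas Cyp51 of cholesterol synthesis fell from 10.88 and 10.74 to 6.91 and 7.72 (-3.49 ± 0.26, adjusted p = 0.00231, limma, held at 0.0373). Gclm, the modifier subunit of the enzyme that limits glutathione synthesis, rose at least 5.63-fold from 6.93 and 6.95 to 9.80 and 9.32 (adjusted p = 0.00135, limma, held at 0.0246). Mif, which encodes a cytokine with tautomerase activity, rose from 8.11 and 8.26 to 11.36 and 11.31 (3.15 ± 0.15, adjusted p = 0.000796, limma, held at 0.0175).

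Proteasome genes rose in 10 of 38 cases (26.3%, against 5.41% of all genes and 14% of those with a detected probe) and fell in 2. Psma5 of the core particle went from 8.77 and 8.69 to 9.93 and 9.86 (1.17 ± 0.07, adjusted p = 0.00122, limma, held at 0.0192), and Psmc4, an ATPase of the cap, from 7.79 and 7.77 to 9.87 and 9.74 (2.02 ± 0.21, adjusted p = 0.00661, limma), a call lost without any of the 4 compared arrays. The falls were Psmb8, given above, and Psma7, from 11.44 and 11.19 to 7.29 and 8.48 (-3.43 ± 0.42, adjusted p = 0.0115, limma), which fell on both its probes and lost the call of each without WT array 2 (up to 0.109). With 1 array left out in the order used above the rises numbered 1, 1, 3 and 2, and none was left after median centring.

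Annexins, calcium-dependent membrane binding proteins, gave the highest share of all lists, 4 rises (50%) and 1 fall among 8. The share of rises was 5.41% over all genes and 14% over those with a detected probe. Anxa3, which is enriched in neutrophils, rose from 9.37 and 9.62 to 13.03 and 13.15 on one probe (3.59 ± 0.32, adjusted p = 0.00403, limma) and from 9.43 and 9.71 to 13.08 and 12.97 on the other (3.45 ± 0.47, adjusted p = 0.0162, limma). The levels of the 2 probes lay close together on every array. The first lost its call without WT array 1 (0.0539), and the second without any of the 4 compared arrays. Anxa11 rose from 10.98 and 11.06 to 12.59 and 12.96 (1.76 ± 0.12, adjusted p = 0.00205, limma, held at 0.0339), with another probe at -0.47 that was not called (adjusted p = 0.0881, limma), and Anxa1, an inhibitor of neutrophil recruitment, from 7.37 and 7.23 to 9.66 and 9.30 (2.18 ± 0.20, adjusted p = 0.00468, limma). Anxa6 fell at least 5.13-fold from 9.45 and 9.36 (adjusted p = 0.0235, limma). Anxa1 lost its call without either WT array (up to 0.0608) and Anxa6 without any of the 4 compared arrays (up to 0.169). With 1 array left out in the same order 1, 1, 2 and 2 rises were counted, and median centring left none.

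Proteins that bind and splice RNA gave the largest number of falls among the 54 gene lists, and theirs was also the longest list on the array. By share of falls the adhesion list (26.1%) and the neutrophil list (23.53%) stood higher. Of 57 genes of hnRNP, SR and Sm proteins 12 fell (21.1%, against 3.17% of all genes and 8.22% of those with a detected probe) and 5 rose. The median was -0.03 as deposited and 0.03 after median centring. Srsf5, an SR protein that selects splice sites, fell from 10.69 and 10.58 to 6.89 and 7.31 (-3.53 ± 0.14, adjusted p = 0.000582, limma, held at 0.0146), and Srsf1 fell on both probes, from 11.49 and 11.79 to 9.62 and 9.73 (-1.97 ± 0.13, adjusted p = 0.00184, limma, held at 0.024) and by 2.46. In Hnrnpa2b1, an RNA-binding protein of the nucleus, the tumor arrays stood apart from each other, at 6.96 and 8.50, with WT at 12.63 and 12.51 (-4.85 ± 0.47, adjusted p = 0.00526, limma). Hnrnpk, which binds C-rich RNA, read 11.75 and 11.82 in WT and 7.00 and 8.30 in 4T1-TB (-4.14 ± 0.40, adjusted p = 0.00517, limma). Its other detected probes gave -0.16 and -0.27 and were not called (adjusted p = 0.404 and 0.188, limma). Hnrnph1 read 11.89 and 11.92 in WT and 6.80 and 9.08 in 4T1-TB (-3.96 ± 0.69, adjusted p = 0.0337, limma). Its other detected probes fell less, by -0.91, -1.87 and -1.65 with a call (adjusted p = 0.00371, 0.00042 and 0.00125, limma) and by -0.39 without (adjusted p = 0.42, limma). On the first probe given for each of these 3 genes the second tumor array was the higher, and all 3 probes lost the call without either WT array. The rises were small nuclear ribonucleoprotein subunits in part, with Snrpg from 7.66 and 7.65 to 9.22 and 9.57 (1.74 ± 0.12, adjusted p = 0.00215, limma, held at 0.0346). Without WT array 1, WT array 2, 4T1-TB array 1 and 4T1-TB array 2 the list had 3, 3, 9 and 10 falls, with neqc 4, and after median centring none. Among 39 translation factors 7 rose and 7 fell, 17.9% in each direction against 14% and 8.22% of the genes with a detected probe and none after median centring. Pabpc1, which binds the poly(A) tail, fell from 9.64 and 9.46 to 6.98 and 7.14 (-2.49 ± 0.09, adjusted p = 0.00048, limma, held at 0.0116), and Eef1b2, an elongation factor subunit, rose from 7.34 and 7.36 to 8.74 and 8.70 (1.37 ± 0.09, adjusted p = 0.00163, limma, held at 0.0275). The other probes of both genes included 1 in the opposite direction that was not called, for Pabpc1 from 7.18 and 7.02 to 7.88 and 7.59 (0.63, adjusted p = 0.103, limma) and for Eef1b2 from 7.99 and 8.40 to 6.85 and 6.93 (adjusted p = 0.234, limma).

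The actin cytoskeleton, which drives neutrophil crawling, gave 6 rises and 8 falls among 53 genes (11.3% and 15.1%, against 14% and 8.22% of the genes with a detected probe), with a median of -0.12 that was 0.04 after median centring, where none was called. Lcp1, L-plastin, which bundles actin in leukocytes, fell from 11.54 and 11.61 to 7.27 and 7.12 (-4.38 ± 0.19, adjusted p = 0.000696, limma, held at 0.0165). Tpm3, a tropomyosin, fell from 11.07 and 10.98 to 7.14 and 7.73 (-3.59 ± 0.19, adjusted p = 0.00101, limma, held at 0.0204) on one probe. Another rose from 7.19 and 7.01 to 7.86 and 7.96 (0.81, adjusted p = 0.0115, limma) and its last gave -0.02. Wasf2, which activates actin branching, fell from 10.20 and 10.13 to 7.02 and 7.59 (-2.86 ± 0.19, adjusted p = 0.00174, limma, held at 0.03) on one probe and rose from 7.44 and 7.33 to 8.38 and 8.48 on the other (1.05, adjusted p = 0.0106, limma). Tpm3 and Wasf2 therefore had no single direction. Among the largest falls on the array, Msn, moesin, which ties actin to the membrane, went from 10.75 and 10.82 to 6.90 and 6.87, at least 13.4-fold (adjusted p = 7.77e-05, limma, held at 0.00465). Its other probe gave -1.42 and was not called (adjusted p = 0.231, limma). Coro1a, coronin 1A of leukocytes, went from 13.25 and 13.21 to 7.10 and 7.35 (-6.001 ± 0.65, adjusted p = 0.00773, limma). The Coro1a call was lost without any of the 4 compared arrays. Of its other 3 probes 1 fell at least 19.3-fold (adjusted p = 0.00024, limma), 1 was lower by at least 7.49-fold without a call (adjusted p = 0.0925, limma) and 1 gave -1.95 without a call (adjusted p = 0.246, limma). With 1 array left out in the order used above the falls of the list numbered 4, 5, 8 and 8.

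Among genes of mitosis 6 of 37 rose (16.2%, against 5.41%) and none fell, where 14% of the genes with a detected probe rose. Mitosis needs the kinase Plk1, the centromere histone Cenpa, the motor Kif22, the midzone protein Prc1, the survivin gene Birc5 and the activator Cdc20 of the anaphase-promoting complex, which were the 6 that rose. Their transcription in dividing cells is known to peak in G2 and M phase through promoters with a CCAAT box and a cell cycle homology region (CHR). The promoters of 3 that hold both and of Plk1 are shown. Capitals mark CCAAT and the CHR letters TTTGAA on either strand, again in GRCm38.p6 windows from 120 bases before to 20 after the RefSeq start.
Cdc20 (chr4:118437324-118437463, minus strand): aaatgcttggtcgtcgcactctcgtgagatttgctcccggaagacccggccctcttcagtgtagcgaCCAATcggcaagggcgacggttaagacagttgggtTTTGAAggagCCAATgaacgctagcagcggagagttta
Kif22 (chr7:127042401-127042540, minus strand): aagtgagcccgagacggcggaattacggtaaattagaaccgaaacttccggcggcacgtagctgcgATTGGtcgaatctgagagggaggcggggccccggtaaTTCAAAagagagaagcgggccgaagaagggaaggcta
Prc1 (chr7:80294331-80294470, plus strand): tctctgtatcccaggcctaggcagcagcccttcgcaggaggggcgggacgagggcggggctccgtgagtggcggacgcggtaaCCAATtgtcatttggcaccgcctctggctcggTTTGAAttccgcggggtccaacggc
Plk1 (chr7:122159315-122159454, plus strand): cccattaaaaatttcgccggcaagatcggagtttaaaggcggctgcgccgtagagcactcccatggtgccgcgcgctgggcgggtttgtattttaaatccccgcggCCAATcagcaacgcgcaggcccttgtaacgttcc
CCAAT is present in 23.9% and TTTGAA in 8.19% of all 27025 windows, and both in 1.89%. A base could count for both motifs. The promoter set held 30 mitosis genes, of which 22 had CCAAT and 14 had both (46.7%), and of the 6 that rose 5 had CCAAT and 3 had both (50%). A match is a description of the letters and not a bound site.

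Plk1 was at background in WT at 6.92 and 6.83 and reached 9.39 and 8.92 in 4T1-TB, at least 4.24-fold (adjusted p = 0.0213, limma). Birc5 went from 6.98 on both WT arrays to 8.83 and 8.47, at least 2.99-fold (adjusted p = 0.00406, limma), and Kif22 from 6.96 and 6.99 to 8.93 and 8.66, at least 3.3-fold (adjusted p = 0.0171, limma). These 3 probes were detected in the tumor-bearing mice and on neither WT array, and the first tumor array was the higher in each. A second Birc5 probe was at 7.08 and 7.49 in WT and 7.14 and 7.21 in 4T1-TB (-0.11, adjusted p = 0.85, limma) and was not called. None of the 3 calls was kept without either WT array (adjusted p up to 0.168). Cenpa was detected in WT and went from 8.93 and 9.17 to 10.44 and 10.24 (1.29 ± 0.11, adjusted p = 0.00399, limma). It alone of the 6 held (0.036), and the list counted 1, 1, 2 and 2 rises with 1 array left out in the same order, 13 without the G-CSF arrays, 2 with neqc and none after median centring. Genes of DNA replication gave 3 rises and 2 falls among 39 (7.69% and 5.13%, against 5.41% and 3.17% of all genes). Rfc2 of the clamp loader rose from 9.13 and 9.29 to 10.35 and 10.28 (1.11 ± 0.09, adjusted p = 0.00362, limma), and the call held. Its other detected probes gave -0.50, 0.36 and 0.42 and were not called (adjusted p = 0.137, 0.597 and 0.295, limma). The transcription factor E2f1 fell from 10.90 and 10.89 to 7.44 and 8.57 (-2.89 ± 0.37, adjusted p = 0.0125, limma). E2f1 lost its call without either WT array (up to 0.115).

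The levels in mice given G-CSF are set beside these. Against the G-CSF arrays 34 probes differed by 2-fold with an unadjusted p below 0.01 (0.0751% of the array), and no probe passed at an adjusted p below 0.05, while 1416 had an unadjusted p below 0.05 (limma). The genes given here are among the 34 and were picked after their values were seen. Plk1 was at 8.08 and 7.06, Birc5 at 7.48 and 7.19 and Cenpa at 9.32 and 9.20 on the G-CSF arrays, between the WT and tumor values. Orm1 read 7.62 and 8.05, next to its WT values, and Hvcn1, the voltage-gated proton channel that supports the oxidase, read 7.92 and 7.48 against 7.44 and 7.49 in WT and 9.29 and 9.33 in 4T1-TB. None of these differences between 4T1-TB and G-CSF passed the adjusted test. Against WT, this Hvcn1 probe rose by 1.84 ± 0.14 (adjusted p = 0.00266, limma), and the call held. Another detected Hvcn1 probe read 7.01 and 6.94 in WT and 8.50 and 8.46 in 4T1-TB and was not called (1.51 ± 0.40, adjusted p = 0.126, limma).

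Among the remaining genes of the largest changes, Ppp1ca, a catalytic subunit of protein phosphatase 1, fell from 11.47 and 11.63 to 6.95 and 7.11 (-4.52 ± 0.09, adjusted p = 0.000149, limma, held at 0.00507 and called after median centring), and its other 2 probes gave -2.65 and -2.82 without a call (adjusted p = 0.26 and 0.198, limma). Rabac1, a Golgi protein that binds Rab GTPases, fell at least 20.1-fold from 11.41 and 11.33 (adjusted p = 0.00256, limma, held at 0.0411). Ngp, a granule protein of the cathelicidin family, fell from 12.21 and 11.91 to 7.67 and 7.81 (-4.32 ± 0.82, adjusted p = 0.045, limma), but the call was lost without any of the 4 compared arrays (up to 0.265). Tmem256, a small membrane protein, rose from 7.54 and 7.74 to 10.74 and 10.66 (3.06 ± 0.17, adjusted p = 0.0012, limma, held at 0.0212 and called after median centring). Aprt, which salvages adenine, rose from 8.50 and 8.68 to 11.66 and 11.65 (3.07 ± 0.24, adjusted p = 0.00296, limma, held at 0.0439), and Dok2, a docking protein that damps kinase signals in myeloid cells, rose by 2.90 ± 0.19 (adjusted p = 0.00178, limma, held at 0.0292). Scamp1, a carrier membrane protein of the secretory route, rose from 8.10 and 8.23 to 11.79 and 11.63 (3.54 ± 0.23, adjusted p = 0.00167, limma, held at 0.029).

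Genes with several probes gave a check within the arrays. Of 1913 genes with 2 or more detected probes, 883 had at least 1 call, all probes rose in 53, all fell in 56, and probes were called in opposite directions in 66. Over 3152 pairs of such probes the log2 differences correlated with r = 0.34 (across probe pairs, which are not independent replicates). Probes that fell by at least 4-fold had company that fell less. For 139 of 200 such probes with 1 gene name, 206 other detected probes of the same genes were on the array, with a median of -0.38 against -2.66 for the probes themselves. Of the 206, 76 also fell, 23 rose and 107 were not called. For 38 probes that rose by at least 4-fold, 47 other probes had a median of 0.90 against 2.42, and 25 rose, 5 fell and 17 were not called. The first probes were chosen for their size, so their medians are larger by that choice. Whether a probe pair measures different transcript ends or isoforms was not tested.

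Genes in which every detected probe rose included Hsd11b1, which reactivates glucocorticoids, with 3 probes at 3.52, 3.11 and 3.09 (adjusted p = 0.0127, 0.0125 and 0.0255, limma), none of which kept its call without any of the 4 compared arrays. Flot2, a lipid raft protein, rose from 9.41 and 9.64 to 12.66 on both tumor arrays and from 10.08 on both WT arrays to 12.78 and 12.998 on a second probe (3.14 and 2.81, adjusted p = 0.00171 and 0.00142, limma), and both calls held. Zfp36l1, which promotes decay of mRNAs with AU-rich elements, rose by 2.63 and 2.10 (adjusted p = 0.00176 and 0.0014, limma) and both calls held. Genes in which every probe fell included Adgre5, the adhesion receptor CD97, with -4.86, at least 20.9-fold and -3.32 on 3 probes (adjusted p = 0.0125, 0.01 and 0.0161, limma), and Vnn3, a pantetheinase, at least 2.8-fold and 3.04-fold (adjusted p = 0.000534 and 0.000461, limma). The Vnn3 calls held, and the Adgre5 calls did not when any of the 4 compared arrays was left out (adjusted p up to 0.134).

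**Figure D3:**
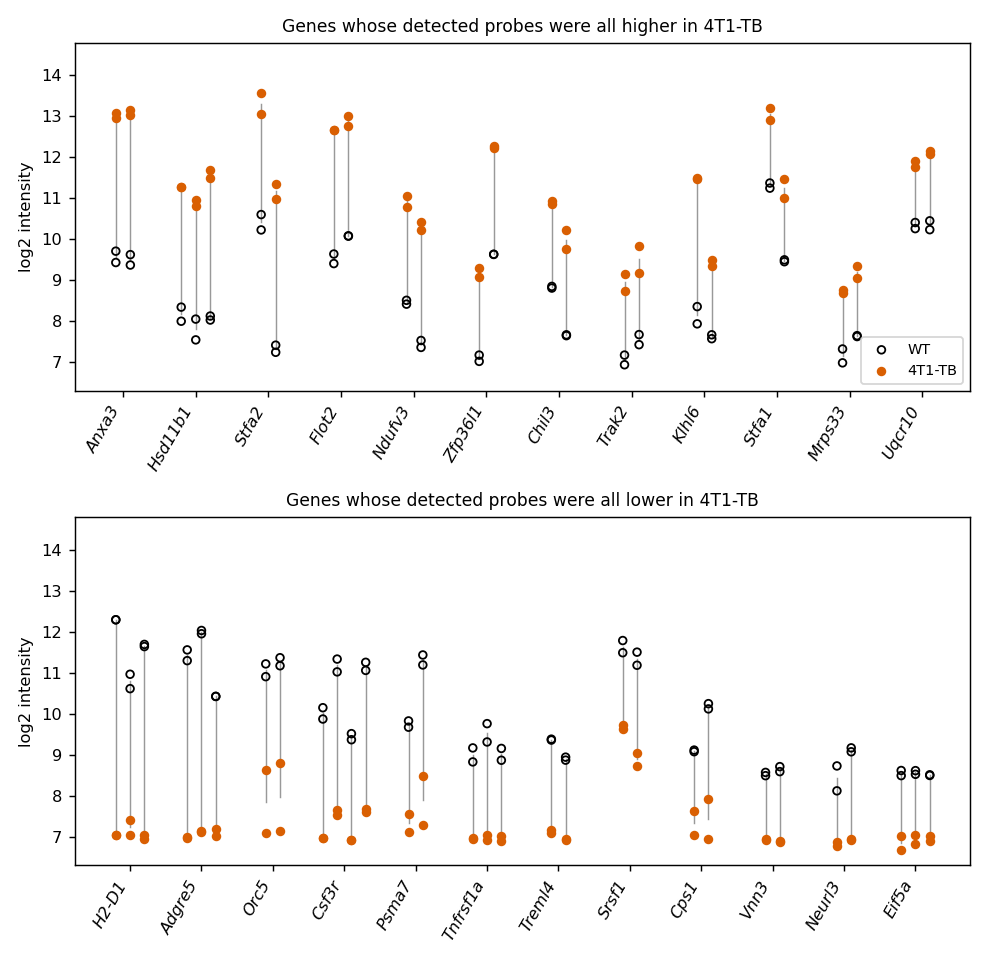
Log2 intensity (y axis) on each WT array (open circles) and each 4T1-TB array (filled circles) for genes whose detected probes were all called higher (upper panel) or all called lower (lower panel), with a line between the group means for each probe. The groups are separate on every probe shown, and the tumor arrays lie near 7 for most of the genes that fell.

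Disagreement was as plain in other genes. Alox5, 5-lipoxygenase of leukotriene synthesis, had 1 probe that rose from 8.67 and 8.70 to 11.14 and 10.79 (2.28, adjusted p = 0.0212, limma) and 2 that fell, at least 9.64-fold from 10.24 and 10.39 to 6.95 and 6.91 (adjusted p = 0.00298, limma) and at least 1.58-fold from 7.66 and 7.76 (adjusted p = 0.0173, limma). The larger fall held, and the smaller fall and the rise did not. Atp6v0d1 of the vacuolar proton pump had 1 probe that rose by 1.28 (adjusted p = 0.00593, limma) and 2 that fell at least 3.79-fold and 6.54-fold (adjusted p = 0.00306 and 0.000942, limma), with both falls held. Msrb1, a methionine sulfoxide reductase, fell at least 25.1-fold on 1 probe (adjusted p = 0.0117, limma), whereas the other read 10.77 and 10.98 in WT and 11.92 and 11.97 in 4T1-TB (1.07, adjusted p = 0.0795, limma). Actb, beta-actin, was at 13.22 and 13.39 in WT and 13.45 and 13.79 in 4T1-TB on a probe that was not called (0.32, adjusted p = 0.732, limma), and at 11.36 and 11.07 against 7.15 and 7.17 on another (-4.05 ± 0.10, adjusted p = 0.00024, limma, held at 0.00552). A single probe of these genes therefore did not give the direction of the gene.

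**Figure D4:**
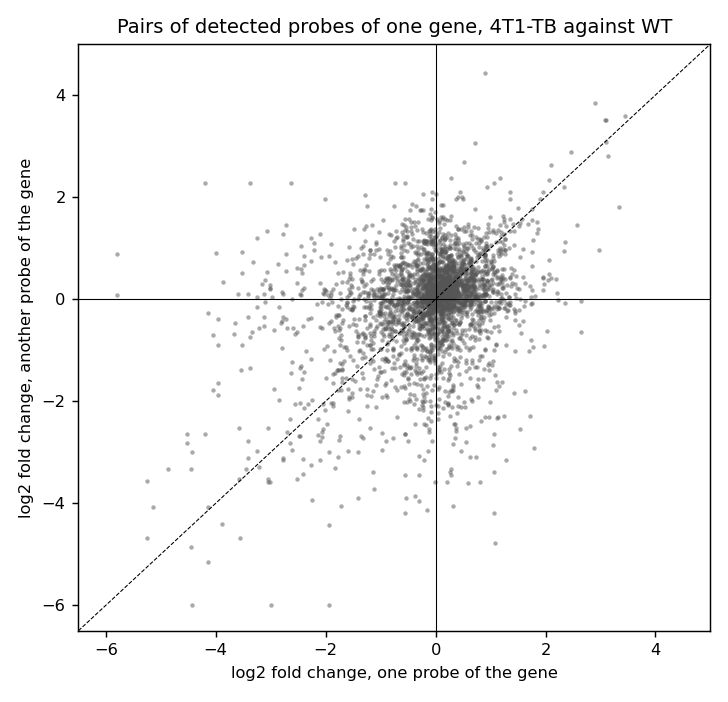
Log2 difference between 4T1-TB and WT for 1 detected probe of a gene (x axis) against another detected probe of the same gene (y axis), with 1 point for each of 3152 pairs, and equal values as a dashed line. Many points with a large fall on one axis lie near 0 on the other.

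The 2 tumor arrays differed from each other by more than 1 log2 unit on 114 detected probes, against 0 for the WT arrays. Of these, 43 were higher on 4T1-TB array 1 and 13 of them belonged to globin genes, Alas2 and Slc4a1, genes of red cell precursors that were looked at after their values were seen. A globin probe for Hba-a1 read 10.31 and 10.01 in WT and 14.27 and 7.16 in 4T1-TB, Alas2, which starts heme synthesis, read 6.88 and 6.87 against 11.15 and 6.88, and Slc4a1, the red cell anion exchanger, 6.98 and 7.13 against 11.58 and 6.91. None was called, and the sum over 17 erythroid genes was 4381 and 3950 in WT and 44217 and 2281 in 4T1-TB. The eosinophil granule gene Prg2 read 6.97 and 6.90 in WT and 10.24 and 7.37 in 4T1-TB. Of the 2 tumor arrays the first was thus the bright one for red cell genes. On G-CSF arrays 1 and 2 Alas2 read 11.12 and 6.93, Slc4a1 12.24 and 6.88 and the Hba-a1 probe 12.05 and 9.13. Array 1 was therefore also the brighter of that group on these probes. The part of red cell precursors in the other results was not tested.

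The other 71 of the 114 were higher on 4T1-TB array 2, and of these 42 were called lower than WT and none higher. Of all 242 probes that fell by at least 4-fold, 41 were more than 1 log2 unit higher on the second tumor array, none on the first, and 121 agreed within 0.25. Tuba1b, an alpha-tubulin, read 13.10 and 12.86 in WT and 6.97 and 11.32 in 4T1-TB and was not called, and the protein disulfide isomerase gene Pdia3 read 12.65 and 12.61 against 7.13 and 10.01. Both were picked after their values were seen as examples of falls whose size depended on the tumor array.

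**Figure D5:**
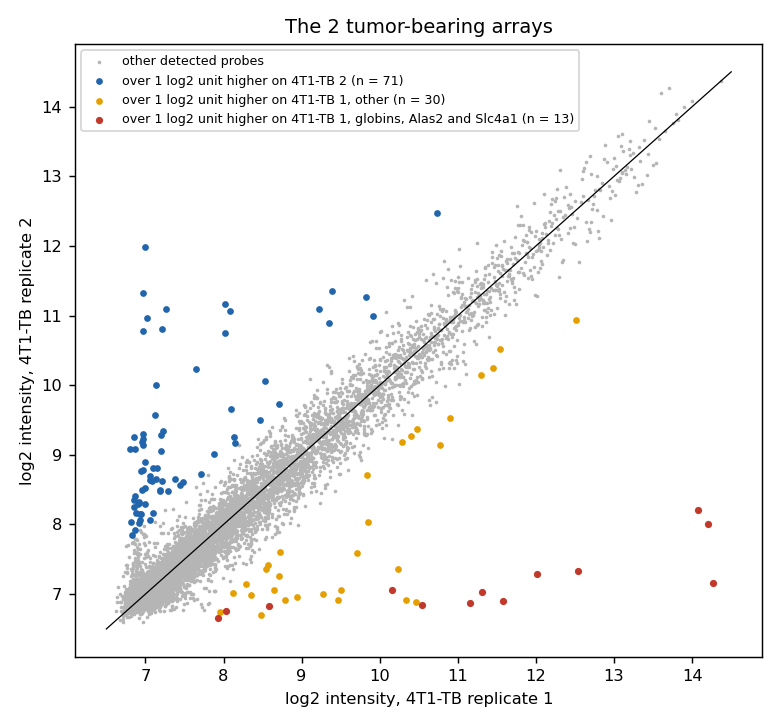
Log2 intensity on 4T1-TB array 1 (x axis) against 4T1-TB array 2 (y axis) for the detected probes in grey, with the 71 probes more than 1 log2 unit higher on array 2 in blue and those higher on array 1 in red (13 of globins, Alas2 and Slc4a1) or orange (30 others). Red points reach 14 on array 1 while they stay near 7 or 8 on array 2, and most blue points lie near 7 on array 1.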

How the data were processed

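Biotin-labelled cRNA of each sorted sample was hybridized to an Illumina MouseWG-6 array. The authors read the arrays in GenomeStudio and deposited a raw intensity and a detection p-value for each probe and array. The authors then deposited log2 values that had been quantile normalized with lumi, and these equal the quantile-normalized log2 of the deposited intensities to within 4.99e-09. The methods name a background subtraction, but the lowest deposited intensity was 85.3 to 91.8 on each array, so background is still in the values and small ratios are compressed. One deposited intensity column each of 4T1-TB and G-CSF carries no replicate number and was taken as the remaining array of its group.

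The deposited log2 values were fitted in limma 3.58.1 (R 4.3.3), with group means over all 6 arrays, 3 residual and 2.59 prior degrees of freedom, and Benjamini-Hochberg adjustment over 45281 probes. Of these, 34885 were annotated to 1 gene, 18 to several and 10378 to none, and 34807 had an Entrez identifier found in the current gene table, with 0 symbols changed. A gene was represented in lists by its probe with the highest mean. Where both arrays of one group were undetected, a fold was given as a bound against the detection floor of each array. Intervals cover the spread between arrays only, and the number of arrays limits the precision. The script was tested on simulated data.

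The gene lists and the members named were chosen with earlier results of these data known. Named were the 20 largest increases and 20 largest decreases called, the genes whose detected probes were all called one way, up to 4 members of each list by smallest adjusted p, genes the study names, and 6 genes with opposite calls. Alternatives were median centring, neqc with an offset of 16, detection filters, the 4 compared arrays alone, a replicate block, a trended robust prior, and each array left out. Promoter letters come from RefSeq (GRCm38.p6).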

Additional observations from a re-analysis of the deposited data

How the results depend on the processing

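Each group had 2 arrays, and a value near background cannot show a further fall. The 1326 higher and 1160 lower probes at an adjusted p below 0.05 (limma) became 26 and 9 after median centring, 3045 and 2081 with only the 4 arrays compared, 997 and 410 among the probes detected on all 6 arrays (chosen after seeing the data, with fewer probes tested), and 244 to 3045 and 479 to 2081 with 1 array left out, the upper ends being the fits without a G-CSF array. The 797 higher and 792 lower probes at 2-fold and an unadjusted p below 0.01 became 1259 and 225 after median centring, 1712 and 1217 with neqc, and 594 and 262 among the probes detected on all 6 arrays. The cause of these moves was not tested. The replicate numbers of the groups paired no samples by the labels, and differences of arrays with the same number correlated with -0.024 between 4T1-TB and WT, 0.023 between G-CSF and WT and 0.243 between 4T1-TB and G-CSF. With the replicate block 1225 probes were higher and 1042 lower, and 801 and 791 by the 2-fold criterion. After median centring 6 named probes changed sign, to 0.093 for Il6ra, 0.0052 for Cxcr4, 0.24 for Cd44, 0.20 for Ly6c1, 0.87 for Mmp9 and 0.49 for the uncalled Ifitm1 probe. With 1 array left out the uncalled differences of Csf3 ran from -0.22 to 0.013, of Arg1 from -0.0658 to 0.024 and of Nos2 from -0.042 to 0.015. Of the 248 probes named, 218 lost their call or were no longer past the threshold after median centring, 50 with neqc, 17 with the replicate block and 20 with a trended robust prior, and none of those under the last 3 settings changed sign.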

Other observations

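Among 32 lysosomal genes 5 rose and 3 fell (15.6% and 9.38%, close to the 14% and 8.22% of the genes with a detected probe), with Ctsb, a cysteine protease, at 9.65 and 9.53 in WT and 10.49 and 10.56 in 4T1-TB (0.94 ± 0.07, adjusted p = 0.00213, limma) and Ctsa, a protective carboxypeptidase, at 8.99 and 8.92 against 6.77 and 7.32 (-1.91 ± 0.17, adjusted p = 0.00435, limma), the latter call being lost without either WT array (up to 0.0565). Of 55 ribosomal protein genes 5 rose and 2 fell, 9.09% and 3.64%, below the 14% and 8.22% of the genes with a detected probe, and the named rises Rpl9, Rpl30, Rpl39 and Rpl41 lay between 0.76 and 1.11. None of the 4 kept its call with each array left out. Of 28 myeloid transcription factors 5 fell (17.9%) and 1 rose (3.57%), and none after median centring. Over all genes 3.17% fell and 5.41% rose, and over those with a detected probe 8.22% and 14%. Irf5, an interferon regulatory factor, fell from 8.22 and 8.39 to 7.18 and 7.08 (-1.17 ± 0.09, adjusted p = 0.00273, limma). Max, the partner of Myc, fell from 8.26 and 8.16 to 6.94 and 7.08 (-1.20 ± 0.08, adjusted p = 0.00185, limma). The rise was in Cebpe, whose other probes included 1 that fell at least 1.89-fold (adjusted p = 0.000942, limma). The calls of Irf5 and Max were kept with each of the 6 arrays left out. Of 24 immediate early genes none rose and 3 fell (12.5%, against 3.17% of all genes and 8.22% of those with a detected probe), and none after median centring. Among the falls was Klf6, from 10.78 and 10.62 to 8.96 and 8.67 (-1.88 ± 0.14, adjusted p = 0.0024, limma), a call also kept with each array left out.

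In heme synthesis Alas1, the first enzyme, rose from 9.23 and 8.54 to 10.60 and 10.94 (1.88 ± 0.33, adjusted p = 0.0339, limma) and Urod from 8.36 and 8.66 to 10.19 and 10.29 (1.73 ± 0.31, adjusted p = 0.0378, limma). In contrast to Alas2 and the globins, both were high on each tumor array, although neither call was kept without any of the 4 compared arrays. Hdc, which makes histamine, rose from 12.72 and 12.63 to 13.32 and 13.42 (0.69 ± 0.06, adjusted p = 0.00437, limma, kept with each array left out) on one probe and fell at least 6.77-fold on the other, from 9.80 and 9.82 to 6.96 and 6.93 (adjusted p = 0.00033, limma). The gene thus had no single direction. Kit, the stem cell factor receptor, rose at least 2.85-fold from 6.84 and 6.86 to 8.91 and 8.25 (adjusted p = 0.0455, limma), a call lost without any of the 4 compared arrays. Hdc and Kit were the called members of the list of 14 basophil and mast cell genes, which summed to 8353 and 7922 in WT and 12156 and 12708 in 4T1-TB with 8 members detected on none of the 4 arrays. Most of each sum came from the brighter Hdc probe. The higher sum in 4T1-TB thus rested mainly on a probe whose direction the other Hdc probe did not share.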
